A study of Arabidopsis thaliana with 12 samples.

Results

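XTH16, XTH18, XTH19, XTH32 and XTH33 are 5 genes of the xyloglucan endotransglucosylase/hydrolase (XTH) family, which numbers 33 genes in Arabidopsis thaliana. They were taken by name, with earlier results of these data known, from the 10 XTH genes with a probe set that the platform annotation assigns to that gene alone. They make up 5 of the 13513 probe sets with 1 gene name among 22746 on the array. Total RNA of whole Columbia seedlings was measured on 12 Affymetrix ATH1 arrays with 1 colour, which fall into 4 groups of 3. One genotype carried MIF1 (MINI ZINC FINGER 1) behind the constitutive 35S promoter and is called MIF1OE here, and the other carried the vector without it. Both are T2 transformants that were selected on hygromycin at 50 µg/mL, so the resistance transgene is common to every group. After 2 days of stratification the seedlings spent 7 days at 22 °C, either under 16 h of light and 8 h of dark a day or, following a 2 h light pulse for germination, in darkness. The vector arrays came from transformed lines 1, 4 and 7, whereas replicates 1 and 2 of MIF1OE came from line 124 and replicate 3 from line 127, which leaves 2 of the 3 MIF1OE samples in each condition with a shared line. According to the labels these are biological replicates. No probe set was named MIF1, and the level of the transgene was therefore not checked.

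XTH enzymes act on xyloglucan, the hemicellulose that coats and tethers cellulose microfibrils in the primary wall of growing plant cells. They cut a xyloglucan chain and either join the new end to another chain, which lets the wall yield or strengthen while staying intact, or pass it to water, which shortens the chain. Seedlings in darkness elongate the hypocotyl and hold back cotyledon opening and chloroplast formation, a state called etiolation. XTH18 and XTH19 are closely related genes known from expression in the root, and in the RefSeq gene table (TAIR10.1) they stand side by side, with XTH24 as the neighbour on the XTH18 side. XTH32 belongs to the small subgroup that acts mainly by hydrolysis, and XTH33 has been reported to sit at the plasma membrane. No other XTH gene lies within 2 genes on either side of XTH16, XTH32 or XTH33. Whether the probe sets of XTH18 and XTH19 also pick up transcripts of a close relative was not tested.

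Values are probe set intensities on the authors' scale, which gave every array the same trimmed mean. Differences are in log2(intensity + 7), a scale that understates the change of dim probe sets, and each was tested with limma over 15922 probe sets that passed a filter on low values. All 5 members passed it. A member is called higher or lower where its Benjamini-Hochberg adjusted p over all probe sets tested is below 0.05. Groups are called apart where every array of one lies above every array of the other. Across all tested probe sets, arrays also deviated together in sets that crossed the genotypes in the same way in light and in darkness. Vector line 1 went with MIF1OE line 124 replicate 2 (r = 0.541 in light and 0.448 in darkness), vector line 4 with line 124 replicate 1 (0.516 and 0.495) and vector line 7 with line 127 (0.445 and 0.253). The labels name no such set, and the sets were found after the data had been seen.

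The first question was how the genes respond to darkness in plants without the transgene. In vector seedlings XTH18, XTH19 and XTH33 rose in darkness, by 2.95-fold to 7.31-fold on the log2(intensity + 7) scale, while XTH16 and XTH32 were not called. The 3 members called higher compare with 16.7% of all probe sets called higher in this contrast and 13.6% called lower, and the same 3 members had groups apart with darkness above light, which held for 24.2% of all probe sets. The members' median log2 difference was 1.56, and that of all probe sets tested was 0.06. In whole seedlings, a changed share of the cells that express a gene and a changed amount of its RNA per cell cannot be told apart.

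XTH18 (AT4G30280) had the largest difference of the 5. In light its intensity in vector lines 1, 4 and 7 was 159.5, 61.9 and 27.6, and in darkness it was 642, 523 and 445. The lowest dark array stood well above the highest light array, and line 1 was the highest of the lines in both conditions. The log2 difference was 2.87 (SE 0.44, 95% interval 1.91 to 3.83, limma adjusted p = 0.0006433). Within lines 1, 4 and 7 the rise was 1.96, 2.94 and 3.71, so the line that was lowest in light rose most. In MIF1OE seedlings the light values were 83.4 and 166 in line 124 and 113 in line 127, and the dark values were 344, 406 and 294 in the same order. These groups were also apart, with a log2 difference of 1.52 (SE 0.44, interval 0.56 to 2.48, limma adjusted p = 0.02523, 2.86-fold). Within the MIF1OE sources the rise was 1.96, 1.26 and 1.33. The levels of XTH18 thus ran, from the highest, through dark vector (537 ± 99.1, SD, n = 3), dark MIF1OE (348 ± 56.2) and light MIF1OE (121 ± 41.9) to light vector seedlings (83.0 ± 68.5). Of the neighbours in this order, dark and light MIF1OE differed by the test. The genotypes were not called within a condition, although in darkness their arrays did not overlap.

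XTH19 (AT4G30290), the neighbour of XTH18, had the widest spread in light. Its light values in vector lines 1, 4 and 7 were 351, 42.9 and 51.0, and those in MIF1OE line 124 replicate 1, replicate 2 and line 127 were 42.1, 283 and 57.1. One array of each genotype was high and the others were low, and the 2 high arrays belong to the same set of arrays. The dark values were 731, 555 and 416 in vector and 348, 607 and 301 in MIF1OE seedlings. Every dark array lay above every light array of the same genotype. The difference in vector seedlings was 2.47 (SE 0.74, interval 0.85 to 4.08, limma adjusted p = 0.02556, 5.53-fold), with 1.05, 3.49 and 2.86 within lines 1, 4 and 7. That call ended when vector light replicate 2 (limma adjusted p = 0.09052), light replicate 3 (0.08964), dark replicate 1 (0.07275) or dark replicate 2 (0.07136) was left out. In MIF1OE seedlings the difference was 2.07 (SE 0.74, interval 0.45 to 3.68) and was not called (limma adjusted p = 0.06232). It was called in 5 of 23 alternatives. Among them were the fits without vector light replicate 1 (0.01613) or MIF1OE light replicate 2 (0.01299), the arrays that were high in light. The mean levels were 567 ± 158 in dark vector, 418 ± 165 in dark MIF1OE, 148 ± 175 in light vector and 127 ± 135 in light MIF1OE seedlings (SD, n = 3), and the genotypes overlapped and were not called within a condition in the fit without a block.

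XTH33 (AT1G10550), the member reported at the plasma membrane, was dim in light. Its light values in vector lines 1, 4 and 7 were 31.7, 20.5 and 24.5, and its dark values were 106, 109.9 and 58.2. All 3 lines rose, by 1.54, 2.09 and 1.05, and the groups were apart. The difference was 1.56 (SE 0.38, interval 0.72 to 2.39, limma adjusted p = 0.009564). In MIF1OE seedlings the light values were 21.6 and 23.6 in line 124 and 66.4 in line 127, and the dark values were 40.3, 67.2 and 99.3. Line 127 was the highest in both conditions, and its light value reached into the dark group. The log2 differences within sources were 0.73, 1.28 and 0.53. Their mean was 0.85 (SE 0.38, interval 0.01 to 1.68) and was not called (limma adjusted p = 0.1364). Without the light array of line 127 it was 1.28 and was called (0.01868). From the highest, the mean levels were 91.3 ± 28.8 in dark vector, 68.9 ± 29.5 in dark MIF1OE, 37.2 ± 25.3 in light MIF1OE and 25.6 ± 5.67 in light vector seedlings (SD, n = 3). No neighbours in that order were called different, although the interval for dark against light MIF1OE (0.01 to 1.68) left out 0. Dark vector was called above light vector.

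**Figure D1:**
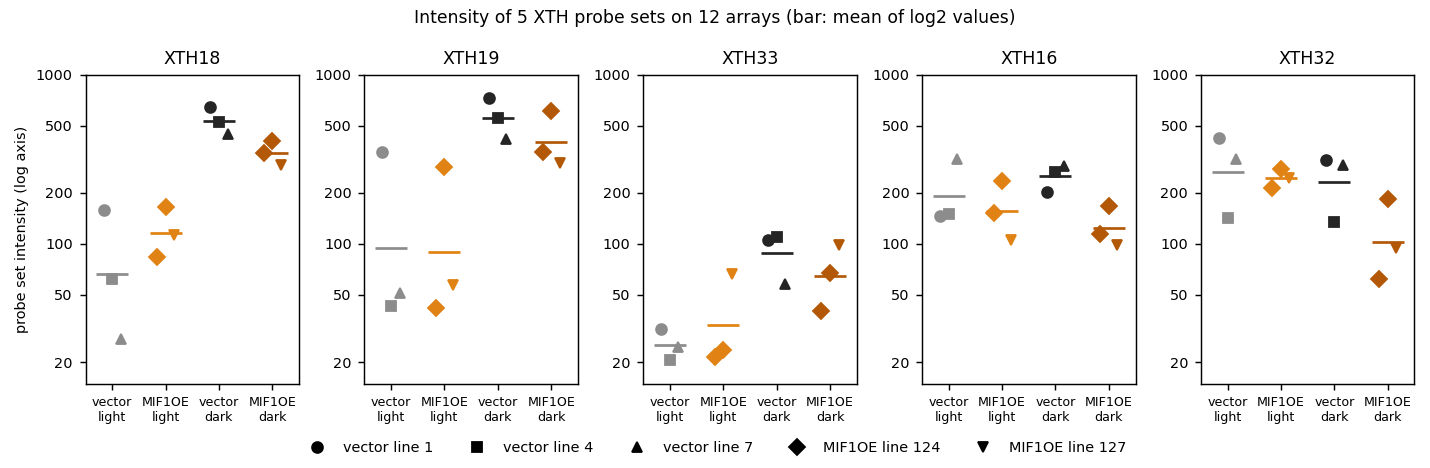
Probe set intensity (log axis) of XTH18, XTH19, XTH33, XTH16 and XTH32 in each of 12 arrays, by genotype and condition, with the line as the symbol and the mean of the log2 values as a bar. XTH18 and XTH19 lie higher on every dark array than on every light array of the same genotype, and the mean of XTH32 is lowest in dark-grown MIF1OE seedlings.

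XTH16 (AT3G23730) and XTH32 (AT2G36870) did not share the rise. XTH16 read 146, 150.5 and 318 in light and 204, 265 and 290.3 in darkness in vector lines 1, 4 and 7. Line 7 was the highest in both conditions, and its light value lay above every dark value. The difference of 0.38 (SE 0.34, interval -0.36 to 1.11) was not called (limma adjusted p = 0.4324), and within lines it was 0.47, 0.79 and -0.13. In MIF1OE seedlings XTH16 read 153, 235 and 105 in light and 114, 168 and 98.5 in darkness. All 3 MIF1OE sources read lower in darkness (log2 differences of -0.40, -0.47 and -0.09), but the groups overlapped and the mean of -0.32 (SE 0.34) was not called (limma adjusted p = 0.5512).

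XTH32, of the hydrolytic subgroup, read 419.7, 142 and 317 in light and 312, 136 and 293 in darkness in vector lines 1, 4 and 7. Line 4 was low in both conditions, so the spread between lines was wider than the differences within them (log2 -0.42, -0.07 and -0.11). The mean difference was -0.20 (SE 0.44, interval -1.16 to 0.76, limma adjusted p = 0.7653). In MIF1OE seedlings the light values were 213, 278 and 246, and the dark values were 62.0, 183 and 94.4. Here every dark array lay below every light array, and the sources differed by -1.67, -0.58 and -1.32. The mean difference of -1.19 (SE 0.44, interval -2.15 to -0.24) was not called with the 12 arrays as separate samples (limma adjusted p = 0.06828). It was called in 6 of 23 alternatives. Among them were the fits without vector light replicate 2 (0.03828), without MIF1OE dark replicate 2 (0.02534) and with arrays centred on their medians (0.04401).

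In MIF1OE seedlings, then, 1 of the 5 members was called higher in darkness, XTH18, and none was called lower, against 12.4% and 11.8% of all probe sets. XTH18 and XTH19 had groups apart with darkness above light, as did 23.3% of all probe sets, and XTH32 had them apart with darkness below light, as did 17.5%. The median of the 5 was 0.85, beside 0.09 over all probe sets. The labels give the line and, for line 124, the replicate, and light and dark samples that match in these were assumed to share a plant source. With that source as a block the count was 4: XTH18 (limma adjusted p = 0.007571), XTH19 (0.01323) and XTH33 (0.02402) higher and XTH32 (0.004314) lower. Over all probe sets that block called 15.7% higher and 13.8% lower. The XTH18 call in turn ended when the line 124 arrays of a condition were averaged (0.1097) and without MIF1OE light replicate 1 (0.09905) or 3 (0.05965) or dark replicate 1 (0.06881) or 2 (0.07929). In vector seedlings the calls of XTH18 and XTH33 held in every alternative in which they were tested.

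Some of the listed markers of organs and root hairs moved with light and darkness as well. Whether their changes reflect organ share was not tested. Of 17 listed leaf photosynthesis genes, 7 had a named probe set. In each genotype 6 of the 7 were called lower in darkness, against 13.6% of all probe sets in vector and 11.8% in MIF1OE seedlings. LHCB4.2 was also below 0 (-0.09 in vector and -0.33 in MIF1OE seedlings) but was not called. The summed intensity of the 7 was 19192 to 24257 in light vector and 16471 to 17455 in light MIF1OE seedlings. It was 5838 to 10494 in dark vector and 4828 to 7542 in dark MIF1OE seedlings. Of 10 root markers only PYK10, a root beta-glucosidase, was named, at 4122 to 4671, 3660 to 5174, 4194 to 5010 and 4904 to 5002 in the same order. Darkness against light was 0.05 for PYK10 in vector and 0.15 in MIF1OE seedlings, neither of them called. PYK10 was among the brightest probe sets (percentile 100 of the mean log2 value), and whether it can show a change at that level was not tested. Of the root hair markers, 2 of 12 were named, the expansins EXPA7 and EXPA18. In vector seedlings EXPA7 was called lower in darkness (-1.60, SE 0.26, limma adjusted p = 0.0009364), and EXPA18 was at -0.79 (SE 0.31, 0.07478) with groups apart. In MIF1OE seedlings they were at 0.41 (SE 0.26) and 0.91 (SE 0.31), neither of them called (limma adjusted p of 0.299 and 0.0504). The EXPA18 groups were apart there too, with darkness above light, as were 23.3% of all probe sets. None of these markers was at 0, and their part in the XTH differences was not tested.

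The next question was what MIF1 overexpression does to the 5 genes. In light no member was called, against 0.986% of all probe sets, and none had an unadjusted p under 0.05 against 1833 of all probe sets. All 5 pairs of groups overlapped. The log2 differences between MIF1OE and vector were 0.74 for XTH18 (SE 0.44, interval -0.22 to 1.70), 0.31 for XTH33 (SE 0.38), -0.06 for XTH19 (SE 0.74), -0.13 for XTH32 (SE 0.44) and -0.28 for XTH16 (SE 0.34). The limma adjusted p lay between 0.5956 for XTH18 and 0.9885 for XTH19. Leaving out single arrays turned the sign for XTH16, XTH19, XTH32 and XTH33. Each of the 5 intervals nevertheless reached past a 2-fold change in at least 1 direction, as for XTH16 downward (to -1.01) and XTH18 upward (to 1.70).

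In darkness all 5 members were lower in MIF1OE than in vector seedlings, and none was called, against 12.9% of all probe sets called in either direction and 6.75% called lower. Their median log2 difference was -0.61, beside -0.00 over all probe sets. For XTH16 the vector values of 204, 265 and 290.3 lay above all MIF1OE values (114, 168 and 98.5). The difference was -0.98 (SE 0.34, interval -1.71 to -0.24, a 1.97-fold lower level, limma adjusted p = 0.07746). XTH18 was also apart, with 642, 523 and 445 above 344, 406 and 294, and differed by -0.61 (SE 0.44, interval -1.57 to 0.35, limma adjusted p = 0.4058). These 2 of 5 members compare with 17.9% of all probe sets that were apart with MIF1OE below vector. XTH32 had the largest difference, -1.12 (SE 0.44, interval -2.07 to -0.16, limma adjusted p = 0.1152). Its groups overlapped, because vector line 4 at 136 lay below MIF1OE line 124 replicate 2 at 183. XTH19 differed by -0.46 (SE 0.74, limma adjusted p = 0.7376) and XTH33 by -0.40 (SE 0.38, 0.5414), with overlapping groups. XTH16 and XTH32 were the 2 members with an unadjusted p under 0.05, as were 4505 of all probe sets.

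The spread in these tests comes from light and dark arrays together. XTH16 was called in 2 of 23 alternatives, for a reason that was not tested. With only the dark arrays in the fit its limma adjusted p was 0.02525, where 8.07% of all probe sets were called lower, and without vector light replicate 3, the array at 318, it was 0.0377. XTH18 (0.06789) and XTH32 (0.1059) stayed uncalled with only the dark arrays. With the sets of arrays as a block, XTH19 (0.04348) and XTH32 (0.01104) were called lower in darkness and XTH16 was not. That block, which was built from deviations in the same data, called 13.8% of all probe sets lower in this contrast, against 6.75% without it.

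**Figure D2:**
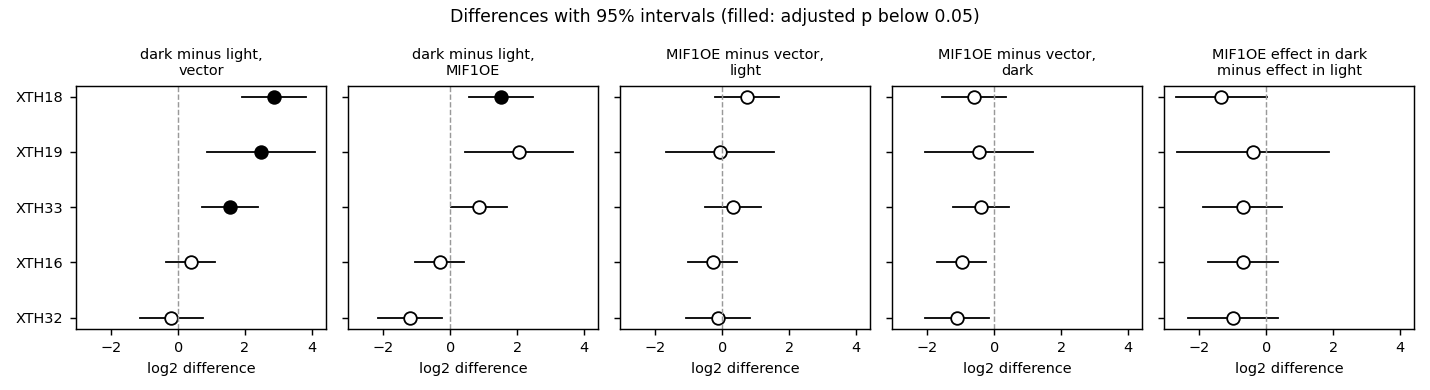
Log2 differences of the 5 genes with 95% intervals in the 5 contrasts, from the limma fit on 12 arrays, with filled symbols where the adjusted p was below 0.05. The filled symbols are XTH18, XTH19 and XTH33 for darkness against light in vector seedlings and XTH18 in MIF1OE seedlings, and every estimate for MIF1OE against vector in darkness lies below 0.

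Set by set, the dark difference was even for some genes and uneven for others. For XTH18 it was -0.65, -0.59 and -0.59 in the sets of vector lines 1, 4 and 7, and for XTH19 it was -0.27, -0.66 and -0.46. For XTH32 it was -0.75, -1.05 and -1.57, and for XTH16 -0.26, -1.17 and -1.49. All 3 sets were thus lower in MIF1OE for these 4 genes. For XTH16 and XTH18, whose dark groups were apart, any pairing of arrays gives that sign. The sets were themselves built from deviations in the same data. XTH33 differed, with -0.61 and -1.30 in the sets of line 124 and 0.71 in that of line 127. In light the sets shared a sign for XTH18, at 0.06, 0.39 and 1.79, and for no other member. XTH33 was at -0.34, 0.05 and 1.22, and XTH16 at 0.67, 0.03 and -1.53. The set with line 127 held the most extreme light value for each of these 3 genes. XTH19 in light was nearly equal within sets (-0.30, -0.02 and 0.14), although it varied from 42.1 to 351 between them, and XTH32 was at -0.58, 0.56 and -0.36.

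**Figure D3:**
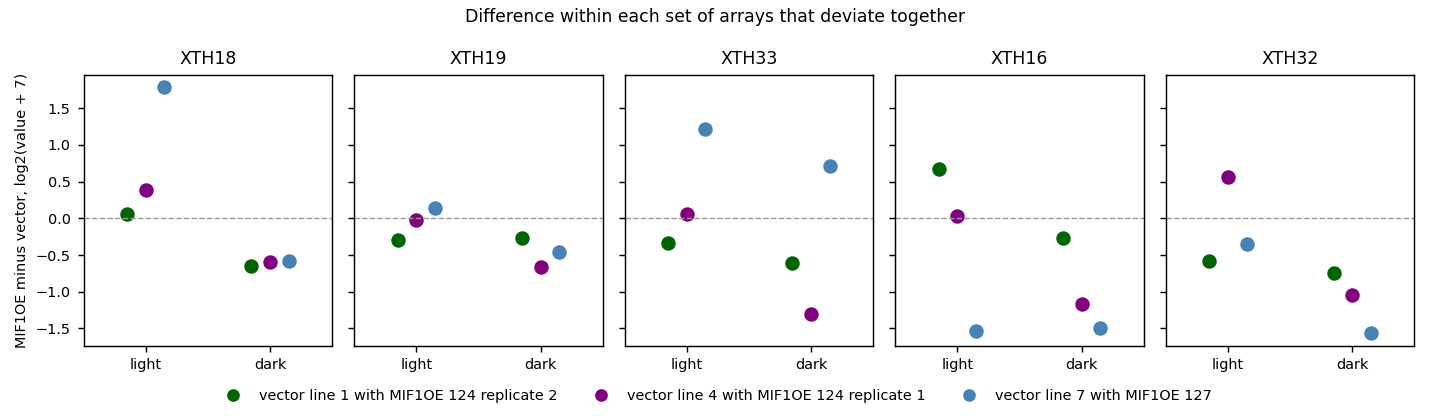
MIF1OE minus vector on the log2(intensity + 7) scale within each of 3 sets of arrays that deviate together, in light and in darkness. In darkness all 3 sets lie below 0 for XTH18, XTH19, XTH16 and XTH32, and for XTH33 the set with line 127 lies above 0 at 0.71. For XTH16 and XTH18 in darkness any pairing of arrays would lie below 0, since their groups were apart.

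Whether the MIF1OE effect itself differed between darkness and light was tested as an interaction. No member was called, against 0.741% of all probe sets, and none had an unadjusted p under 0.05 against 1791 of all probe sets. The estimates were negative for all 5. XTH18 was at -1.36 (SE 0.62, interval -2.71 to 0.0024, limma adjusted p = 0.4459), XTH32 at -0.99 (SE 0.62, 0.6024), XTH33 at -0.71 (SE 0.54, 0.6822), XTH16 at -0.69 (SE 0.48, 0.6428) and XTH19 at -0.40 (SE 1.05, 0.9269). For XTH18 the sign of the genotype difference went from positive in light to negative in darkness, and neither was called. The same number states how far the dark rise of XTH18 fell short in MIF1OE seedlings (1.52) of that in vector seedlings (2.87), and that difference between genotypes was not called.

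Among the members, XTH18 and XTH19 followed each other closely. Over 12 arrays their log2 values had Pearson's r of 0.91, and 0.85 after the group means were removed. XTH33 had r of 0.78 with XTH18 and 0.65 with XTH19, but 0.16 and 0.07 after removal of the group means, so that its likeness to them lay in the group means. XTH16 and XTH32 had r of 0.49, and 0.27 without the group means. These values describe arrays that share lines and sets, and were not tested.

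The genes most like each member were named by the highest Pearson r over 12 arrays among 8734 other tested probe sets with 1 gene name, up to 2 per member. XTH18 was most like TET3 (r = 0.97), a tetraspanin membrane protein, and WES1 (0.96), a GH3 enzyme that conjugates auxin to amino acids. Genes chosen in this way follow the member on the same arrays, so their differences are given as a description with no test. Darkness against light in vector seedlings was 0.97 (SE 0.18) for TET3 and 1.91 (SE 0.39) for WES1. XTH19 was most like AT4G35840 (0.95) and AT5G06970 (0.94), with 0.89 (SE 0.27) and 0.52 (SE 0.24) in that contrast. XTH33 was most like AT3G20510 (0.92) and AT5G38610 (0.91), with 0.90 (SE 0.23) and 0.95 (SE 0.26). For XTH16 the genes were AT4G17610 (0.93) and AT1G22330 (0.91), and MIF1OE against vector in darkness was -0.59 (SE 0.18) and -1.32 (SE 0.35) for these. For XTH32 they were AT2G36630 (0.90) and AT3G16530 (0.88), a legume lectin-like protein. MIF1OE against vector in darkness was -1.23 (SE 0.30) and -1.37 (SE 0.33) for these.

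Of the 33 XTH genes, 10 had a probe set named for them alone, and 7 passed the filter: the 5 members, XTH20 and XTH27. Over these 7, 4 were called higher and none lower in darkness in vector seedlings (median 1.38), and 1 was called higher and 1 lower in MIF1OE seedlings. Over all probe sets the shares were 16.7% and 13.6% in vector and 12.4% and 11.8% in MIF1OE seedlings, so that the MIF1OE counts lie near the background. None of the 7 was called between genotypes in light, in darkness or in the interaction. XTH20, which belongs with XTH18 and XTH19 to a root-expressed group, read 46.1, 44.5 and 22.0 in light and 86.6, 93.8 and 140.0 in darkness in vector lines 1, 4 and 7. Every dark value was above every light value, and the rise was 1.38 (SE 0.31, limma adjusted p = 0.00573). In MIF1OE seedlings XTH20 read 21.2, 19.6 and 35.3 in light and 60.8, 69.1 and 33.4 in darkness. Line 127 stayed nearly level there while line 124 rose, and the mean difference of 0.91 was not called (SE 0.31, limma adjusted p = 0.05077). Between genotypes in darkness the difference was -0.91 (SE 0.31, limma adjusted p = 0.07235), with MIF1OE below vector on every array and no call. Without vector light replicate 3 both differences were called (0.02895 and 0.04455), as was the first without the light (0.03269) or dark (0.01885) array of line 127. The first was also called with a pseudocount of 1 (0.04979) and the second after quantile normalization (0.04944). XTH27 (EXGT-A3), linked to vein formation in leaves, took the other direction. Its MIF1OE values were 1399, 938 and 1362 in light and 526, 449 and 743 in darkness, a difference of -1.11 (SE 0.26, limma adjusted p = 0.008312). In vector seedlings it differed by -0.42 (SE 0.26, limma adjusted p = 0.2438).

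The remaining 3 named XTH probe sets, XTH21, XTH26 and XTH29, lay below the filter. XTH26 read 0.652 to 9.10 and XTH29 1.71 to 14.8 over the 12 arrays. XTH21, a root-expressed XTH, read 10.8, 15.4 and 2.43 in light vector, 4.57, 7.14 and 1.85 in light MIF1OE and 4.65, 1.81 and 2.96 in dark vector seedlings. On the dark MIF1OE arrays it read 54.4, 39.2 and 43.9, above all 9 other arrays. In the fit without a filter, over 22746 probe sets, XTH21 was higher in dark MIF1OE than in dark vector seedlings by 2.38 (SE 0.29, limma adjusted p = 0.001164), and its interaction was 2.84 (SE 0.41, 0.0151). This direction is opposite to that of the 5 members in the same contrast. XTH21 was looked at after its values had been seen, and it was not among the probe sets tested with the filter.

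The pathway that builds xyloglucan was represented by 4 of 20 listed genes, all of the CSLC family of glucan synthases that make the xyloglucan backbone. In vector seedlings 2 of the 4 rose in darkness and none fell, against 16.7% and 13.6% of all probe sets. In darkness the same 2, CSLC4 and CSLC5, were called lower in MIF1OE than in vector seedlings, against 6.75% of all probe sets, and no gene of the 4 was called in light or in the interaction. CSLC5 read 163, 157 and 133 in light vector, 109.9, 121 and 96.5 in light MIF1OE, 256, 289 and 243 in dark vector and 139.6, 166 and 104 in dark MIF1OE seedlings. The dark vector arrays were above all others. The rise in vector seedlings was 0.77 (SE 0.18, limma adjusted p = 0.007154), and in darkness MIF1OE differed from vector by -0.93 (SE 0.18, 0.00736). CSLC4 read 458, 363 and 227 in light vector, 186, 324 and 215 in light MIF1OE, 599.97, 769.5 and 614 in dark vector and 272, 369 and 284 in dark MIF1OE seedlings. It rose by 0.95 in vector seedlings (SE 0.27, limma adjusted p = 0.01761) and differed by -1.09 between dark MIF1OE and dark vector seedlings (SE 0.27, 0.02049). The first of these calls ended without vector light replicate 3 or dark replicate 2 (limma adjusted p up to 0.0748), and the second without MIF1OE dark replicate 1 or 3 or vector dark replicate 2 or 3 (up to 0.0762). CSLC6 (-0.14, SE 0.20) and CSLC12 (-0.20, SE 0.24) were not called in darkness (limma adjusted p of 0.7062 and 0.6284). In light, MIF1OE against vector was -0.64 for CSLC12 and -0.44 for CSLC5, uncalled but with groups apart (limma adjusted p of 0.2897 and 0.3505). There CSLC4 was at -0.50 and CSLC6 at 0.04, with overlapping groups. No gene of the lists for xyloglucan trimming (7 genes), cellulose synthesis (16) or brassinosteroid synthesis and response (22) had a named probe set.

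**Figure D4:**
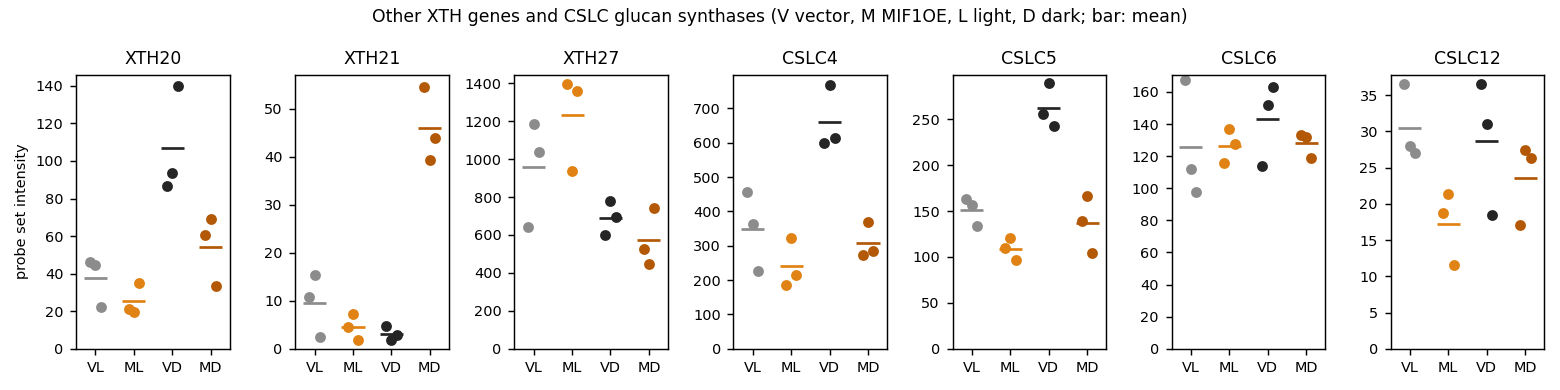
Probe set intensity (linear axis from 0, one scale per gene) of XTH20, XTH21, XTH27 and the CSLC glucan synthases on each array, with group means as bars. XTH20, CSLC4 and CSLC5 are highest in dark vector seedlings, and XTH21 reads 39.2 to 54.4 only in dark MIF1OE seedlings.

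Root hair markers moved with the genotype in darkness, in the direction opposite to the members. EXPA7 and EXPA18 were both called higher in dark MIF1OE than in dark vector seedlings, against 6.14% of all probe sets, EXPA7 by 1.56 (SE 0.26, limma adjusted p = 0.003248) and EXPA18 by 1.53 (SE 0.31, 0.009054). Their summed intensity was 42.8 to 56.7 in dark vector and 95.2 to 219 in dark MIF1OE, against 91.9 to 169.97 in light vector and 92.7 to 104 in light MIF1OE seedlings. The leaf photosynthesis markers lay on the same side as the members, with 6 of 7 below 0 for MIF1OE against vector in darkness and a median of -0.55, beside -0.61 for the members. One of them, PRK, was called lower (-1.54, SE 0.24, limma adjusted p = 0.002209), against 6.75% of all probe sets. The uncalled markers ran from -0.60 for LHCB4.2 to 0.05 for RCA, and the root marker PYK10, among the brightest probe sets, was not called (0.15, limma adjusted p = 0.5846). In light the leaf photosynthesis markers were also below vector, with a median of -0.35 and none called. The median of the members there was -0.06, and that of all probe sets was -0.01. None of these markers was at 0, and their part in the genotype differences of the XTH and CSLC genes was not tested.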

How the data were processed

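The authors deposited linear intensities per probe set, made with GCOS (Affymetrix; version not given in the sources used here), per the submitters' processing notes. The mean trimmed by 2% at each end was the same on every array, so this scaling was kept. Median intensity per array ran from 57.4 to 70.4, and the number of arrays limits the precision. From these, log2(intensity + 7) was computed. The 64 control probe sets and 6824 below the 30th percentile of the mean log2 value were left out. Contrasts of 4 group means over 12 arrays were fitted with lmFit and eBayes in limma 3.58.1 (R 4.3.3), with 1 spread per probe set pooled over groups (8 residual and 4.08 prior degrees of freedom).

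Genes were named through the platform annotation, updated by Entrez identifier from a RefSeq table (TAIR10.1): 13513 probe sets had 1 gene, 503 several and 8730 none. No coordinates are printed, since the files name no build. The fit was tested on simulated arrays, but the outcome is not given here and nothing is drawn from it. The members and lists were chosen with earlier results of these data known. Named genes were the members, the 2 genes most like each, every measured XTH gene, and up to 3 called and 2 uncalled genes per other list. Light and dark samples of the same line, and of the same labelled replicate of line 124, were treated as pairs. Their deviations from group means correlated in all 6 pairs (r 0.233 to 0.339). Light and dark arrays of different genotypes within an array set also correlated (r 0.164 to 0.305). A shared plant source and a shared array set therefore cannot be told apart. Alternatives were pseudocounts of 1 and 30, no filter and a 50th percentile filter, quantile normalization, median centring, an intensity trend, only the groups compared, the plant source or, added later, array sets as a block, line 124 averaged, and each array left out. No promoter sequence was used.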

Additional observations from a re-analysis of the deposited data

Results flagged for a closer look

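XTH21, a family gene whose probe set lay below the filter on low values and so entered no comparison among the probe sets tested, had a mean intensity of 45.9 ± 7.79 (SD, n = 3) in dark-grown MIF1OE seedlings. Its highest value on any vector array was 15.4, in light, and its dark vector mean was 3.14 ± 1.42. All 3 dark MIF1OE arrays, from both lines, lay above all 6 vector arrays, and XTH21 was singled out for this signal after its values had been seen.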

How the results depend on the processing

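No member was called for MIF1OE against vector in light or for the interaction under any alternative run, and in vector seedlings 2 or 3 members were called higher in darkness under each. For darkness against light in MIF1OE seedlings the 1 call became 2 with median-centred arrays, 3 with only the arrays compared, 3 with the array sets as a block, 0 with line 124 averaged, and 0 to 2 when single arrays were left out. With the plant source as a replicate block there were 4, and that block changed no other member's call. For MIF1OE against vector in darkness the count of 0 became 1 with only the arrays compared, 2 with the array sets as a block, and 0 to 1 when single arrays were left out. Over fits without 1 array, log2 differences in light ran from -0.57 to 0.075 for XTH16, -0.85 to 0.85 for XTH19, -0.57 to 0.19 for XTH32 and -0.13 to 0.56 for XTH33. They ran from -0.64 to 0.17 for XTH32 in darkness against light in vector seedlings and from -1.31 to 0.39 for the interaction of XTH19. The blocks and the fit on only the arrays compared left each member's difference as it was and changed the estimated spread. For the other settings the cause was not tested. XTH33 was not tested under the 50th percentile filter, and the interaction, which already uses all groups, was not refitted on fewer. With 3 arrays a group and 2 of 3 MIF1OE samples from 1 line, the intervals allow changes of 2-fold or more that were not called, and XTH33 in light lies close to the dim end of what was tested.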
